A study of Homo sapiens with 6 samples.

Results

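The miR-30 family was followed in HuH7 cells, a long-established line from a human hepatocellular carcinoma, after exposure to cisplatin, a platinum drug that crosslinks DNA. Its members were taken by name from the custom miRNA array: every probe named miR-30a, miR-30b, miR-30c, miR-30d or miR-30e, on either arm of the hairpin, which gave 11 of the 2019 human probes. There were 2 groups of 3 samples each, HuH7 cells without cisplatin and HuH7 cells with 1 µg/ml cisplatin, both for 24 h, and total RNA of each sample was hybridised to a 1-colour array. Samples carry numbers 1 to 3 within a group in the labels, with nothing on whether each was its own culture. The p-values therefore reflect only how far these samples differ among themselves, and that spread could be technical.

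A miRNA hairpin is cut into a 5p and a 3p strand, and the strand held by an Argonaute protein pairs with target mRNAs mainly through its seed, bases 2 to 8 from the 5′ end. In the miR-30 family the 5p strands share a seed and are usually the more abundant product, while the 3p strands carry other seeds. The family is widely expressed in epithelial tissues, liver included, and has been studied for repression of the autophagy gene BECN1 and of the mesenchymal regulator SNAI1. The hairpins lie in neighbouring pairs, miR-30e with miR-30c-1, miR-30a with miR-30c-2, and miR-30b with miR-30d.

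RefSeq mature sequences (GRCh38.p14) matched 7 of the 11 members by name, those of miR-30a, miR-30c and miR-30e. They are shown because the members fall into seed groups that the naming rule did not use. The seed is in capitals and each sequence runs 5′ to 3′.
miR-30a-5p: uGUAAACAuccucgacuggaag
miR-30c-5p: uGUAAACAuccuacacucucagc
miR-30e-5p: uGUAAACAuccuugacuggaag
miR-30a-3p: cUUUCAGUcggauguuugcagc
miR-30e-3p: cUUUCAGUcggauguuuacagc
miR-30c-1-3p: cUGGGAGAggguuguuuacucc
miR-30c-2-3p: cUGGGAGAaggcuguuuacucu

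The 3 matched 5p strands share the seed GUAAACA, and no other mature miRNA in the RefSeq table has it. The 3p strands of miR-30a and miR-30e share UUUCAGU, which likewise no other entry has. That table holds no entry for miR-30b or miR-30d, so it cannot show whether their strands carry these seeds. The 3p strands of both miR-30c hairpins share UGGGAGA, with 1 further entry, miR-6788-5p, which has no probe on the array. Counting positions from 1 at the 5′ end, miR-30a-5p and miR-30e-5p differ at 1 of 22 bases (C13U), and miR-30a-3p and miR-30e-3p differ at 1 of 22 bases (G18A). miR-30c-5p differs from miR-30a-5p at 5 of the 22 bases compared, and from miR-30e-5p also at 5. Probes for strands that differ by 1 base can share signal, and how far these probes did was not tested.

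Both arms passed the detection filter for the hairpins of miR-30a and miR-30e, printed here whole with the 5p strand and then the 3p strand in capitals.
MIR30A: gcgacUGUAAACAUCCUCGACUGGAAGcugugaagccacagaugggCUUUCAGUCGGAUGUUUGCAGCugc
MIR30E: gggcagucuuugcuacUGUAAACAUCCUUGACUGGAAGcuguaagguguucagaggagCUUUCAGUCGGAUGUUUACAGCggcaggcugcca

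MIR30A lies on the minus strand at chr6:71403551-71403621 and MIR30C2 on the same strand at chr6:71376960-71377031, with 26519 bases between them. MIR30E lies on the plus strand at chr1:40754355-40754446 and MIR30C1 at chr1:40757284-40757372, with 2837 bases between them. Both chromosome 1 hairpins fall inside the bounds of NFYC, a protein-coding gene for a subunit of the transcription factor NF-Y (chr1:40691704-40771603), and no other gene in the RefSeq gene table spans either chromosome 6 hairpin. That table gives no exons, so an exonic or intronic position was not determined. miR-30c-5p has the same sequence from MIR30C1 and MIR30C2, and its 1 probe cannot tell the loci apart.

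Of the 2019 human probes, 329 to 738 per array lay above the blank-spot limit, set for each array at 2 SD over the mean of its 925 blank spots, which ran from 209 to 247. The lowest number was that of cisplatin replicate 2, where the blank spots spread most (SD 18.0, against 10.6 to 13.4 on the other arrays). Hepatocyte markers were miR-122-5p, miR-122-3p, miR-192-5p, miR-194-5p, miR-148a-3p and miR-885-5p, and these 6 probes were all above the limit on all 6 arrays. The list does not take in every arm of these miRNAs: miR-194-3p, left out, was above the limit on 1 control and 0 cisplatin arrays. Of 6 blood cell markers, 0 reached it on all 3 arrays of a group, though miR-451a and miR-142-3p reached it on 2 arrays of each. Of 7 endothelial, stromal and muscle markers 3 reached the limit on all 3 arrays of a group, miR-126-3p, miR-143-3p and miR-145-5p. Both miR-1 and miR-199a-3p were below it on every array. Summed raw foreground over those 7 was 1599 to 1761 in control and 1580 to 1811 in cisplatin arrays, a sum to which the 4 untested probes add mostly background. The 3 tested ones were all positive (median log2 difference 0.14), and of the 6 hepatocyte markers 5 were negative (median -0.14). Of these 9, 0 passed in limma, and 2 had an unadjusted p under 0.05. Those were both arms of miR-122, with log2 differences of -0.37 (3p) and -0.21 (5p). Over all 324 tested probes 46.3% were positive and 15.7% had an unadjusted p under 0.05 in limma. The part of these markers in the results below was not tested. The samples are bulk RNA of the HuH7 line, so a lower signal in all cells and in part of them cannot be told apart.

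In HuH7 cells all 5 miR-30 5p strands were measurable with and without cisplatin, while most 3p strands were near the background. No member passed the test for a difference after cisplatin. The values furthest above 0 among the tested members belonged to miR-30b-5p, at 1.18-fold, and miR-30d-5p, at 1.15-fold. miR-30a-5p, miR-30c-5p and miR-30e-5p lay between 0.951-fold and 1.02-fold. The folds come from normexp-corrected, quantile-normalized intensities, a scale that shrinks the folds of dim probes.

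All 5 of the 5p probes were above the blank-spot limit on all 6 arrays. Of the 6 3p probes, miR-30e-3p was above it on all 6 arrays and miR-30a-3p on 3 of 3 control and 2 of 3 cisplatin arrays. The other 4 were detected on few arrays or none. Per array, 9, 7 and 7 family probes were detected in control replicates 1, 2 and 3, and 9, 6 and 9 in cisplatin replicates 1, 2 and 3. Levels of different probes are not ranked against each other, because each probe binds with its own strength.

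**Figure D1:**
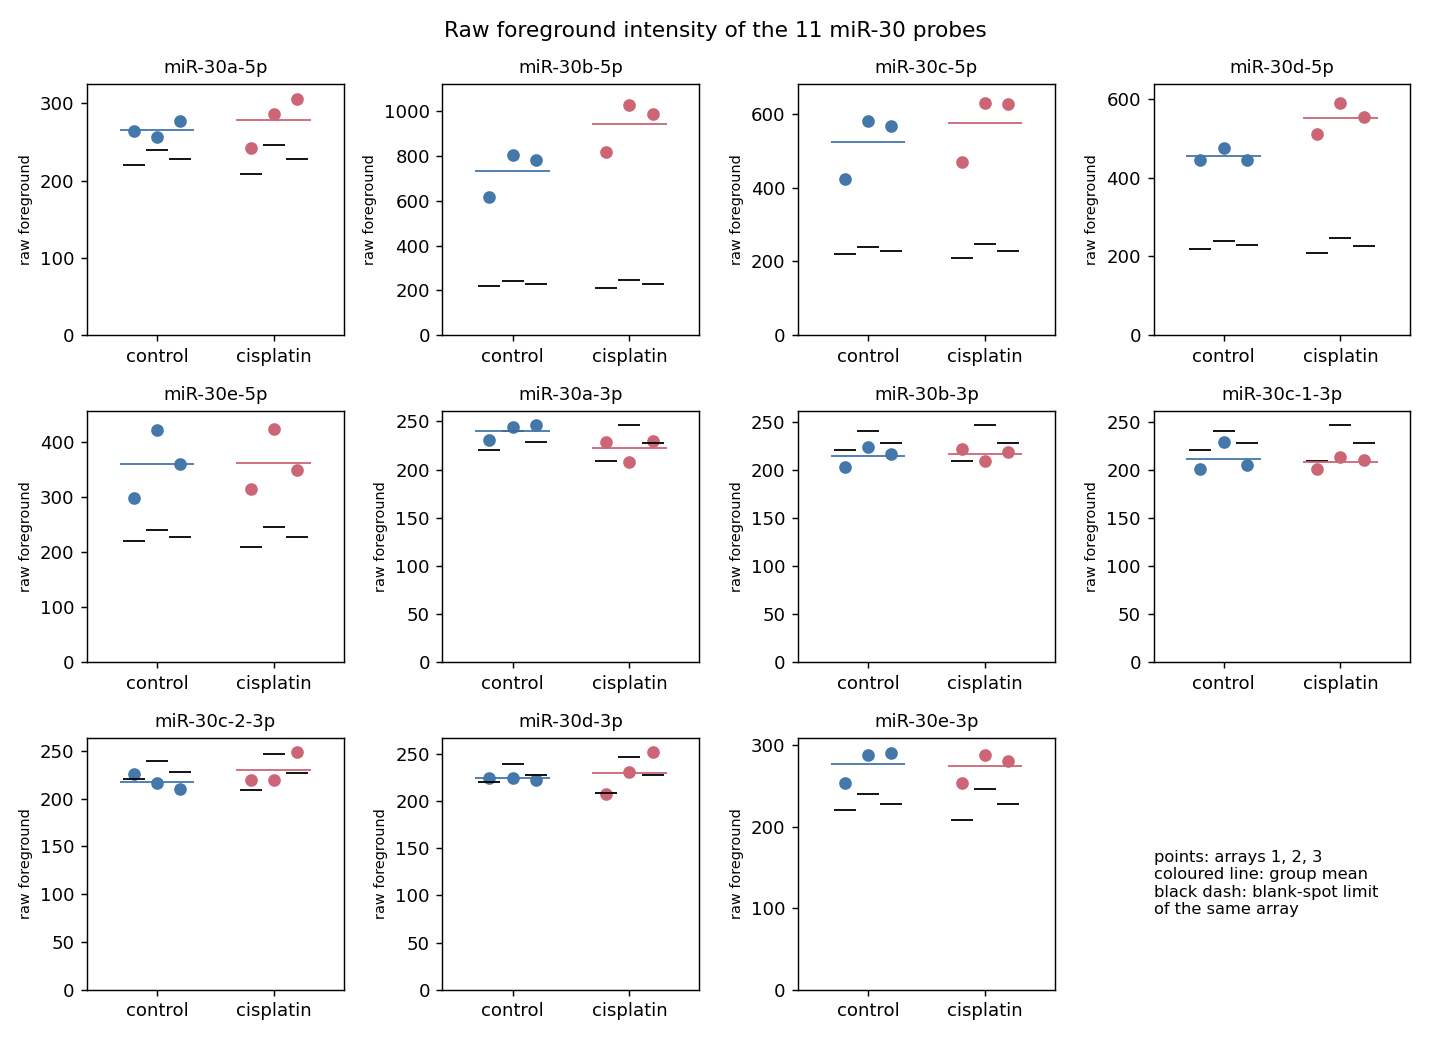
Raw foreground intensity (linear scanner units, vertical axis from 0) of the 11 miR-30 probes on each control (blue) and cisplatin (red) array, with group means as lines and each array's blank-spot limit as a black dash. The miR-30b-5p points run from 616 to 802 in control and from 817 to 1027 in cisplatin arrays, while 4 of the 3p probes sit at or around the limit in both groups.

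A probe entered the test when it lay above the limit on all 3 arrays of at least 1 group, which 324 human probes and 7 of the 11 members did: the 5 5p strands, miR-30a-3p and miR-30e-3p. In limma, 1 of the 324 probes passed at a Benjamini-Hochberg adjusted p under 0.05 (0.309%), and 0 of the 7 members did. At an unadjusted p under 0.05 there was 1 member, miR-30b-5p, against 51 of all tested probes in either direction (15.7%) and 26 on the higher side, where it lies (8.02%). By neither rule does the count of members stand clear of these shares. Of the 7 tested members 3 were positive and 4 negative, with a median log2 difference (cisplatin minus control) of -2.3e-05. Among the 4 was miR-30a-3p, which entered the test only through the control group. Over the 6 members detected on all 6 arrays the median was 0.015. Over all 324 probes the median was -0.012, with 46.3% positive. That share depended on the normalization: it was 46.0% with cyclic loess, 68.5% with median scaling, 70.4% with the 75th percentile, 65.7% without normalization, 70.1% with the authors' values and 29.0% with scaling to spike spots, where the members positive were 4, 6, 6, 6, 6 and 2 of 7. The share with the authors' values is over 308 of the 324 probes, those with at least 2 listed values in each group.

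hsa-miR-30b-5p, a 5p strand of the family, had raw foreground of 616, 802 and 781 on control arrays 1, 2 and 3. On cisplatin arrays 1, 2 and 3 it was 817, 1027 and 987. Every cisplatin value lay above every control value, though the lowest of the former and the highest of the latter nearly met. After normalization the log2 values were 9.23, 9.35 and 9.38 in control and 9.55, 9.55 and 9.60 in cisplatin arrays, again without overlap. The log2 difference was 0.24 (SE 0.059, 95% interval 0.096 to 0.39, n = 3 per group), with a limma adjusted p of 0.129, so it did not pass. It was positive in each same-numbered pair, at 0.32, 0.20 and 0.21 for pairs 1, 2 and 3. Cisplatin replicates 1 and 2 have the same normalized value because the probe held 1 rank on both, which can make the SE too small.

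hsa-miR-30d-5p, whose hairpin neighbours that of miR-30b, had raw foreground of 444, 475 and 444 in control and 511, 589 and 554 in cisplatin arrays. The raw groups did not overlap. Normalized, control replicate 1 (log2 8.63) was level with cisplatin replicates 2 and 3 (8.63 and 8.63), and the other values were 8.36 and 8.37 in control and 8.71 in cisplatin arrays. The groups thus met on this scale only through control replicate 1. The log2 difference was 0.20 (SE 0.088, 95% interval -0.017 to 0.43, limma adjusted p = 0.341), and the pair values were 0.078, 0.27 and 0.26.

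Raw foreground was separated upward in these 2 members, as in 31 of the 324 tested probes (9.57%). Separated downward in raw foreground was 1 member, miR-30a-3p, as were 11 of 324 (3.4%). That member entered the test only through the control group, so its separation can follow in part from the filter. After normalization 1 member, miR-30b-5p, was separated upward, where 28 of 324 were (8.64%), and 1, miR-30e-3p, downward, where 33 of 324 were (10.2%). Higher in all 3 pairs were miR-30b-5p and miR-30d-5p, and lower in all 3 were miR-30e-5p and miR-30e-3p, against 19.1% and 20.4% of all tested probes. For miR-30e-5p the normalized pair values were -0.0016, -0.041 and -0.17, and its raw foreground was higher with cisplatin in 2 of 3 pairs.

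The sizes of the miR-30b-5p and miR-30d-5p values depended on the scaling. With median scaling they were 0.46 and 0.41, while all tested probes together shifted by 0.088. With the authors' values they were 0.47 and 0.47, with a common shift of 0.14 over 308 probes. Less the common shift of each setting, miR-30b-5p ranged from 0.17 to 0.37 and miR-30d-5p from 0.17 to 0.32 over 22 alternatives. Both stayed positive in those 22, some of which cannot move a value, and the smallest adjusted p was 0.0735 for miR-30b-5p (pixel means) and 0.0755 for miR-30d-5p (75th percentile). Between the arrays at slide positions 1 and 2 (replicate 2 of each group) the values were 0.17 and 0.27. Fitting only the 4 arrays at positions 3 and 4 gave 0.29 and 0.17. The scanner output heads this number Cell, and its reading as a position on the slide is an inference. Slide position and group cannot be told apart, since no position held both groups.

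**Figure D2:**
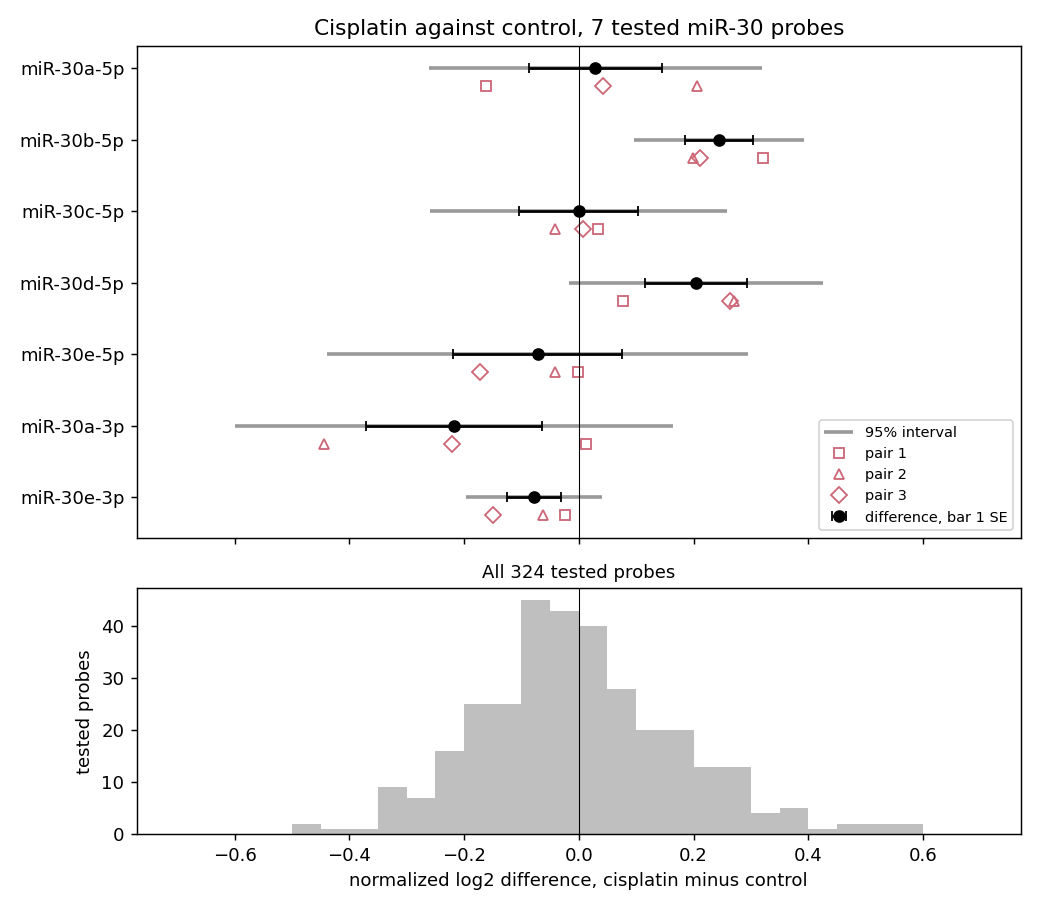
Upper panel: normalized log2 difference, cisplatin minus control, of the 7 tested miR-30 probes (black point, bar 1 SE, grey line 95% interval) with the value of each same-numbered pair as an open symbol. Lower panel: the same difference for all 324 tested probes. The miR-30b-5p interval, 0.096 to 0.39 before adjustment over probes, does not reach 0, and those of the other 6 members do.

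The remaining 5p strands, those with a printed sequence, had differences near 0. hsa-miR-30c-5p gave raw foreground of 423, 581 and 567 in control and 470, 628 and 627 in cisplatin arrays. In both groups replicate 1 was the lowest, and each cisplatin array lay above the control array of its number. Normalized, these became 8.60, 8.84 and 8.87 in control and 8.63, 8.80 and 8.88 in cisplatin arrays, a log2 difference of -2.3e-05 (SE 0.10, 95% interval -0.26 to 0.26, limma adjusted p = 1). The interval, from the fit without a term for replicate, leaves room for a change of 0.26 either way. With a replicate block the SE was 0.043, on fewer residual degrees of freedom. With median scaling the value was 0.20 (limma adjusted p = 0.615).

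hsa-miR-30e-5p had raw foreground of 299, 422 and 360 in control and 315, 424 and 349 in cisplatin arrays. The groups overlapped, and replicate 2 was the highest in each. Its log2 difference was -0.072 (SE 0.15, 95% interval -0.44 to 0.29, limma adjusted p = 0.875). With a replicate block the SE was 0.056.

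hsa-miR-30a-5p, 1 base apart from miR-30e-5p, had raw foreground of 264, 256 and 277 in control and 242, 286 and 305 in cisplatin arrays. The lowest and the 2 highest values were all in cisplatin arrays. Its log2 difference was 0.029 (SE 0.12, 95% interval -0.26 to 0.32, limma adjusted p = 0.962). When pixel means replaced pixel medians it became -0.37 (SE 0.38). On cisplatin replicate 2 the local background of this spot had a pixel mean of 303 and a median of 164, a ratio of 1.85, while over the other spots of the family and the other arrays this ratio ran from 1.03 to 1.13.

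Among the 3p strands, hsa-miR-30e-3p had raw foreground of 254, 288 and 290 in control and 254, 288 and 281 in cisplatin arrays, so that replicates 1 and 2 read the same in both groups. Normalized values were 7.46, 7.49 and 7.54 in control and 7.43, 7.43 and 7.39 in cisplatin arrays, just without overlap. The log2 difference was -0.078 (SE 0.047, 95% interval -0.20 to 0.040, limma adjusted p = 0.525).

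hsa-miR-30a-3p had raw foreground of 231, 244 and 246 in control and 229, 208 and 230 in cisplatin arrays. All control values lay above all cisplatin values, by 1 unit at the closest, and the reading of 208 was below that array's blank-spot limit of 247. Normalized, cisplatin replicate 1 (7.04) lay above all control arrays (7.03, 6.90 and 6.96), and cisplatin replicates 2 and 3 were at 6.45 and 6.74. The log2 difference was -0.22 (SE 0.15, 95% interval -0.60 to 0.16, limma adjusted p = 0.595). The probe entered the test only through the control group, where it was higher, so a value below 0 can follow in part from the filter. How far it did was not tested, and the probe was not among those detected on all 6 arrays. The value was -0.073 without cisplatin replicate 2 and -0.37 without cisplatin replicate 1.

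The arms of 1 hairpin can be set side by side for miR-30a and miR-30e. For MIR30A the log2 differences were 0.029 for the 5p and -0.22 for the 3p strand, and for MIR30E they were -0.072 and -0.078. No test of the difference between arms was made. The 3p strands of miR-30a and miR-30e, 1 base apart, had pair values of 0.013, -0.44 and -0.22, and of -0.024, -0.062 and -0.15.

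The 4 members that were not tested did not rise clear of background in either group, and no fold is given. miR-30b-3p had raw foreground of 203, 224 and 216 in control and 221, 209 and 218 in cisplatin arrays, with 1 of 6 arrays above the limit. miR-30c-1-3p was below the limit on every array, at 201, 229 and 205 in control and 201, 213 and 210 in cisplatin arrays. These 2 overlapped fully between the groups. miR-30c-2-3p read 226, 216 and 210 in control and 220, 220 and 249 in cisplatin arrays, with 1 and 2 arrays above the limit. miR-30d-3p read 225, 225 and 222 in control and 207, 231 and 252 in cisplatin arrays, with 1 array above the limit in each group. In both the highest reading was on cisplatin replicate 3, and the groups overlapped on the other arrays.

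**Figure D3:**
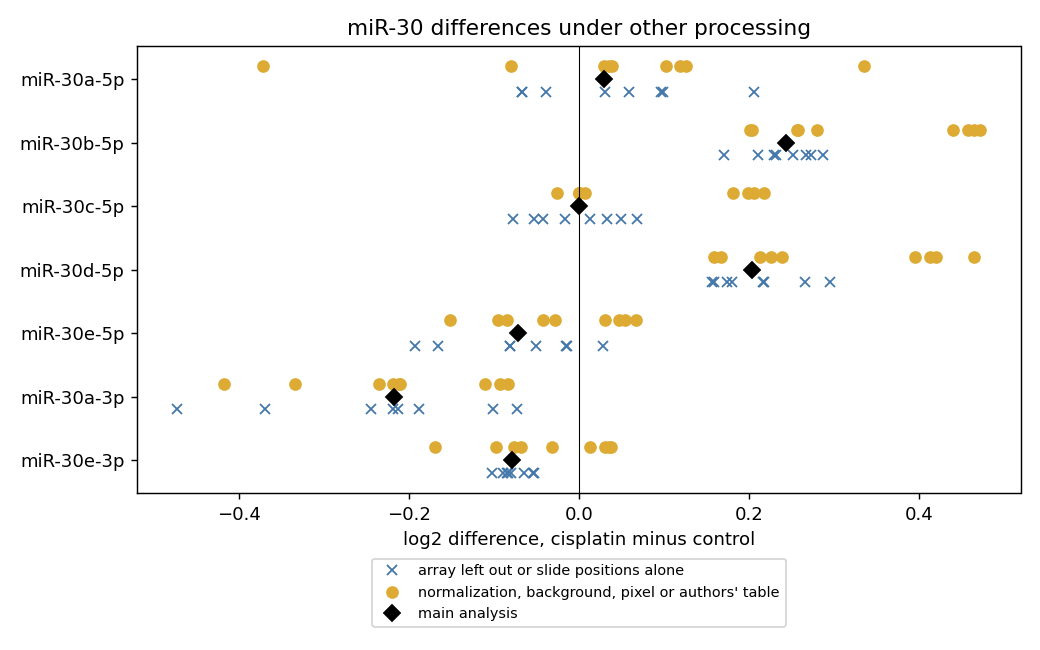
Log2 difference, cisplatin minus control, of the 7 tested miR-30 probes in the main analysis (diamond), under other normalization, background, pixel or deposited values (circles), and with arrays left out or slide positions taken alone (crosses). miR-30b-5p and miR-30d-5p lie to the right of 0 in every setting drawn, miR-30a-5p, miR-30c-5p, miR-30e-5p and miR-30e-3p have settings on both sides, and miR-30a-3p, which entered only through the control group, lies to the left.

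Likeness between probes was measured as the mean absolute difference of normalized log2 values, each centred on its mean over the 6 arrays. For the mean of the 5 5p members, the nearest of 312 other tested probes was miR-186-5p, at 0.026 against a median of 0.13 over those probes. For miR-30b-5p it was miR-221-3p (0.021), which had a log2 difference of 0.22 (SE 0.056, limma adjusted p = 0.143). The nearest was miR-185-5p for miR-30d-5p (0.039), miR-642b-3p for miR-30c-5p (0.030), miR-423-5p for miR-30a-5p (0.043) and miR-33a-5p for miR-30e-5p (0.081). For the 3p strands it was miR-625-3p for miR-30e-3p (0.032) and miR-3714 for miR-30a-3p (0.052). Within the family the nearest pair was miR-30c-5p and miR-30e-3p (0.094), followed by miR-30a-5p and miR-30c-5p (0.10), and miR-30b-5p and miR-30d-5p stood at 0.11. miR-30a-5p and miR-30e-5p, which differ by 1 base, stood at 0.22. All these values are over the same 6 arrays and describe them only.

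Other miRNAs studied as regulators of autophagy genes, a process in which miR-30a is placed through BECN1, numbered 14 on the array and 10 among the tested probes. Of these 4 were positive and 6 negative, with a median log2 difference of -0.079, and 0 passed in limma in either direction (2 higher and 1 lower at an unadjusted p under 0.05). The furthest from 0 were miR-24-3p (0.39, SE 0.11, limma adjusted p = 0.167) and miR-130a-3p (0.35, SE 0.085, limma adjusted p = 0.129). Of 11 other miRNAs studied as keepers of the epithelial state 6 were tested, 5 of them positive, with a median of 0.064, and 0 passed limma in either direction (1 higher and 0 lower at an unadjusted p under 0.05). miR-34a-5p (0.31, SE 0.083, limma adjusted p = 0.146) was the furthest above 0, and miR-148a-3p (-0.19, SE 0.18, limma adjusted p = 0.743) was the 1 below 0. Of the miR-200 family, miR-200a-3p and miR-200b-3p stood at 0.091 and 0.17, and miR-200c-3p, miR-141-3p and miR-429 were not tested. miR-101-3p (0.037) is in both lists. Over all 324 tested probes the median was -0.012, with 46.3% positive and 15.7% at an unadjusted p under 0.05 in limma, as given above. The share of positive probes moved with the normalization, from 29.0% to 70.4%.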

How the data were processed

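The dye was Hy5, per the labels. The deposited scanner files give, per the file headers, linear intensity as pixel medians and means of every spot and of its local background, in 1 channel headed 532. The scanner is not given in the sources used here. A table of the authors' processed linear intensity, whose median is 31 for each array, was recovered from the foreground medians by subtracting 1 constant and dividing by 1 factor per array. It served only as an alternative.

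limma 3.58.1 (R 4.3.3) was used for background correction of the pixel medians by normexp with an offset of 50 and for quantile normalization across the 2019 human probes, before log2 values were taken. lmFit and eBayes (4 residual, 1.52 prior degrees of freedom) were run on 324 probes, with Benjamini-Hochberg adjustment at 0.05. The number of arrays limits the precision. Only the fit and its adjustment were run on simulated log2 values, drawn with the same spread for every probe. Background correction, normalization and the detection filter were not part of that simulation. Figures used matplotlib 3.10.9.

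Deviations of same-numbered samples from their group means correlated at 0.44, 0.24 and 0.20 over these probes, all over 0.1. The labels' numbers were therefore taken to pair the samples in the pair values and in an alternative fit with a replicate block. The main fit had no term for replicate, so its SE, intervals and p-values are unpaired. Control 3 and cisplatin 2 correlated at 0.23 too, so for numbers 2 and 3 the check does not single out the numbering.

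All 11 family probes are named, with the nearest other tested probe of each tested member (probes of 1 rank on all arrays left out). Members and lists were chosen with earlier results of these data known. The alternatives are in the closing part.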

Additional observations from a re-analysis of the deposited data

How the results depend on the processing

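The number of miR-30 probes that passed was 0 of 7 under all planned and added settings with a test, with 0 to 2 at an unadjusted p under 0.05. Over all probes 1 passed in the main analysis, 3 without background correction, 2 with median scaling, 3 with the 75th percentile, 4 with cyclic loess and 5 at an adjusted p under 0.10. It was 0 without normalization, with spike scaling, without a detection filter, with detection on all 6 arrays, with trend and robust moderation, with pixel means, with the authors' values and at positions 3 and 4 alone (limma, with 33, 13, 97, 39, 38, 39, 26 and 38 probes at an unadjusted p under 0.05). With the replicate block it was 0 (57 probes at an unadjusted p under 0.05), and for the miR-30 probes the block changed no call. Leaving out 1 array gave 0 to 3, with 3 without cisplatin replicate 2. The fits at positions 3 and 4 alone and the values at positions 1 and 2 alone were added after seeing the data.

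The family median of -2.3e-05 became 0.10 without normalization, 0.12 with median scaling, 0.13 with the 75th percentile, -0.080 with spike scaling, -0.042 with pixel means and 0.22 with the authors' values. All tested probes shifted by 0.071, 0.088, 0.095, -0.11, -0.0038 and 0.14 there, the last over 308 probes. It was -0.067 at positions 3 and 4 alone and -0.042 at positions 1 and 2 alone, and it ranged from -0.077 (without control replicate 1) to 0.069 (without cisplatin replicate 1) when 1 array was left out.

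Signs turned for 4 members, none of them called. miR-30c-5p was at 0.0072 without background correction, 1.6e-04 with plain subtraction, 0.18 without normalization, 0.20 with median scaling, 0.21 with the 75th percentile, 3.3e-05 with cyclic loess, 0.22 with the authors' values and 0.013 at positions 3 and 4 alone. miR-30e-3p and miR-30e-5p were at 0.013 and 0.030 without normalization, 0.031 and 0.048 with median scaling, 0.038 and 0.055 with the 75th percentile, and 0.036 and 0.067 with the authors' values, and all 8 values are negative less the common shift. miR-30a-5p was at -0.080 with spike scaling, -0.37 with pixel means and -0.067 at positions 3 and 4 alone. With 1 array left out, miR-30a-5p ranged from -0.067 to 0.099, miR-30c-5p from -0.077 to 0.069 and miR-30e-5p from -0.19 to 0.029. The cause was not tested. The blocks, moderation and the detection filter cannot move a single value.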
